A study of Mus musculus with 20 samples.

Results

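A set of 10 genes that the growing mouse oocyte expresses were followed through 4 groups of ovaries: the secreted oocyte growth factors Gdf9 and Bmp15, the secreted protein gene Oosp1, and the maternal effect genes Nlrp5, Ooep, Tle6, Khdc3, Padi6, Zar1 and Dppa3. They were taken by name from a fixed list and matched by symbol to the Ensembl identifiers of the count tables. No measured value entered this step, but the members and the gene lists below were chosen with earlier results of these data known. All 10 were found among the 54838 genes counted. The ovaries came from 20 female mice aged about 77 days, in groups of 5: the ctrl line in estrus or diestrus, and the FL1 line in estrus or diestrus. FL1 is the Dummerstorf high-fertility line, an outbred line selected over many generations for large and heavy litters, and ctrl is the unselected outbred line from the same founder stock. All groups carried unmodified genomes and no animal was treated. The cycle stage was read from vaginal smears, with cornified epithelial cells for estrus and leucocytes for diestrus. The 3' ends of polyadenylated RNA from whole ovaries were sequenced, and the values are read counts per gene.

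Oocytes grow inside follicles, the shells of granulosa cells in which they are nursed until ovulation. GDF9 and BMP15 are ligands of the transforming growth factor beta family that the oocyte secretes and the surrounding granulosa and cumulus cells read through BMPR2 and type 1 receptors, with SMAD proteins passing the signal on. Maternal effect genes are transcribed in the oocyte, but their products are needed after fertilization: NLRP5, OOEP, TLE6 and KHDC3 form the subcortical maternal complex, PADI6 is needed for the cytoplasmic lattices, ZAR1 for the passage from oocyte to embryo, and DPPA3 for keeping methylation of the maternal genome. In whole ovary RNA these transcripts come from a small number of large cells, so fewer oocytes and less RNA per oocyte cannot be told apart. Oocytes already ovulated in estrus were collected from the oviduct by the study and are not in these ovaries.

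All members are protein-coding genes. In the GENCODE M21 annotation of GRCm38, Gdf9 (ENSMUSG00000018238) lies at chr11:53431023-53437904, Bmp15 (ENSMUSG00000023279) at chrX:6314107-6320721 and Oosp1 (ENSMUSG00000041857) at chr19:11667460-11691150. Of the subcortical maternal complex genes, Nlrp5 (ENSMUSG00000015721) lies at chr7:23385889-23441922 and Tle6 (ENSMUSG00000034758) at chr10:81590904-81601073. Ooep (ENSMUSG00000032346) and Khdc3 (ENSMUSG00000092622) share chromosome 9, at chr9:78376109-78378725 and chr9:73101836-73104438. Padi6 (ENSMUSG00000040935) lies at chr4:140727355-140742643, Zar1 (ENSMUSG00000063935) at chr5:72576806-72581254 and Dppa3 (ENSMUSG00000046323) at chr6:122626410-122630272. The genes thus sit on 9 chromosomes. Khdc3 is overlapped on its own strand by Gm20509, which shares 790 exonic bases with it and had 0 counts, so reads from the shared bases may not have been assigned to Khdc3. Tle6 shares 56 of the 31-base words near its 3' end with the pseudogene Gm9136, which also had 0 counts.

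The stretches directly upstream of the start sites are shown for the members that varied together, because FIGLA and NOBOX, regulators of oocyte genes, read E-box and NOBOX letters in such stretches. Of the 10 members, 8 had an entry in the RefSeq promoter table of GRCm38.p6, with 10 starts in all. The last 150 bases before each start were searched on both strands for the E-box CANNTG and for the NOBOX letters TAATTG or TAGTTG, and a base could count in both. An E-box was present before a start of 7 of the 8 genes (8 of 10 starts), and 47.7% of all 32851 stretches of this length in the table held it. The NOBOX letters were present at 1 of the 10 starts, the downstream start of Nlrp5, and in 6.9% of all stretches. Such a match is a description of letters and not a site of binding. Below are 4 of the stretches, all free of annotated exons (that of Khdc3 lies in an intron of the annotated gene), 5′ to 3′ on the strand of the gene, with the E-box in capitals. Bmp15 (chrX:6320725-6320874, minus strand) is shown because it was the only member to pass a test below and holds none of the searched letters. Nlrp5 (chr7:23385739-23385888, plus strand, upstream start) is shown because its line difference in diestrus ran against that of Bmp15. Khdc3 (chr9:73102248-73102397, plus strand) is shown as a member of low level and Padi6 (chr4:140742644-140742793, minus strand) as a member of high level.
Bmp15: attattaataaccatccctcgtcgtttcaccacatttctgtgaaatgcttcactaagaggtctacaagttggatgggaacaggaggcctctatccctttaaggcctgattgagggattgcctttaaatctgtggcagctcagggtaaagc
Nlrp5: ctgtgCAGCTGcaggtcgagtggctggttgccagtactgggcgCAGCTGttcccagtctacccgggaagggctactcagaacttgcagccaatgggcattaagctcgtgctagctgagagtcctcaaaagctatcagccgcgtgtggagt
Khdc3: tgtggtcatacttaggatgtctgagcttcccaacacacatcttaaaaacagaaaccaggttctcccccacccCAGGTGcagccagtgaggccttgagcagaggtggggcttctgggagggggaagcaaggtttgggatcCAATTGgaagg
Padi6: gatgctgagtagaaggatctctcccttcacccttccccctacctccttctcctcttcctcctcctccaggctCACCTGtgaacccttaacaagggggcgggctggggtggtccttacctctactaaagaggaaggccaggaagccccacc

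Between 5991223 and 10352718 reads were counted per library. Every member was counted in every library, with the lowest count, 26 reads, for Khdc3 and the highest, 982, for Gdf9. Levels are given as CPM, counts scaled to a common library size by TMM factors, a method that corrects for the share that a few abundant genes take of a library. The summed granulosa and luteal markers were abundant in all libraries, although the granulosa marker Amh was near 0, while 4 oviduct markers summed to at most 4.65 CPM and 4 fat markers to at most 44.5 CPM. ctrl estrus replicate 5 stood apart from the rest: its root mean square deviation from its group mean was 0.61 on the log2 scale, against 0.31 to 0.44 in the other 19 libraries. In that library the 8 granulosa markers summed to 1250 CPM against 2130 to 3160 in the other ctrl libraries in estrus, and the 7 luteal markers to 29600 CPM against 6630 to 21100. No pair of libraries within a group agreed within sampling noise, with a chi-square per gene of 6.32 to 46.6 over 40 pairs. The replicates are separate animals.

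**Figure D1:**
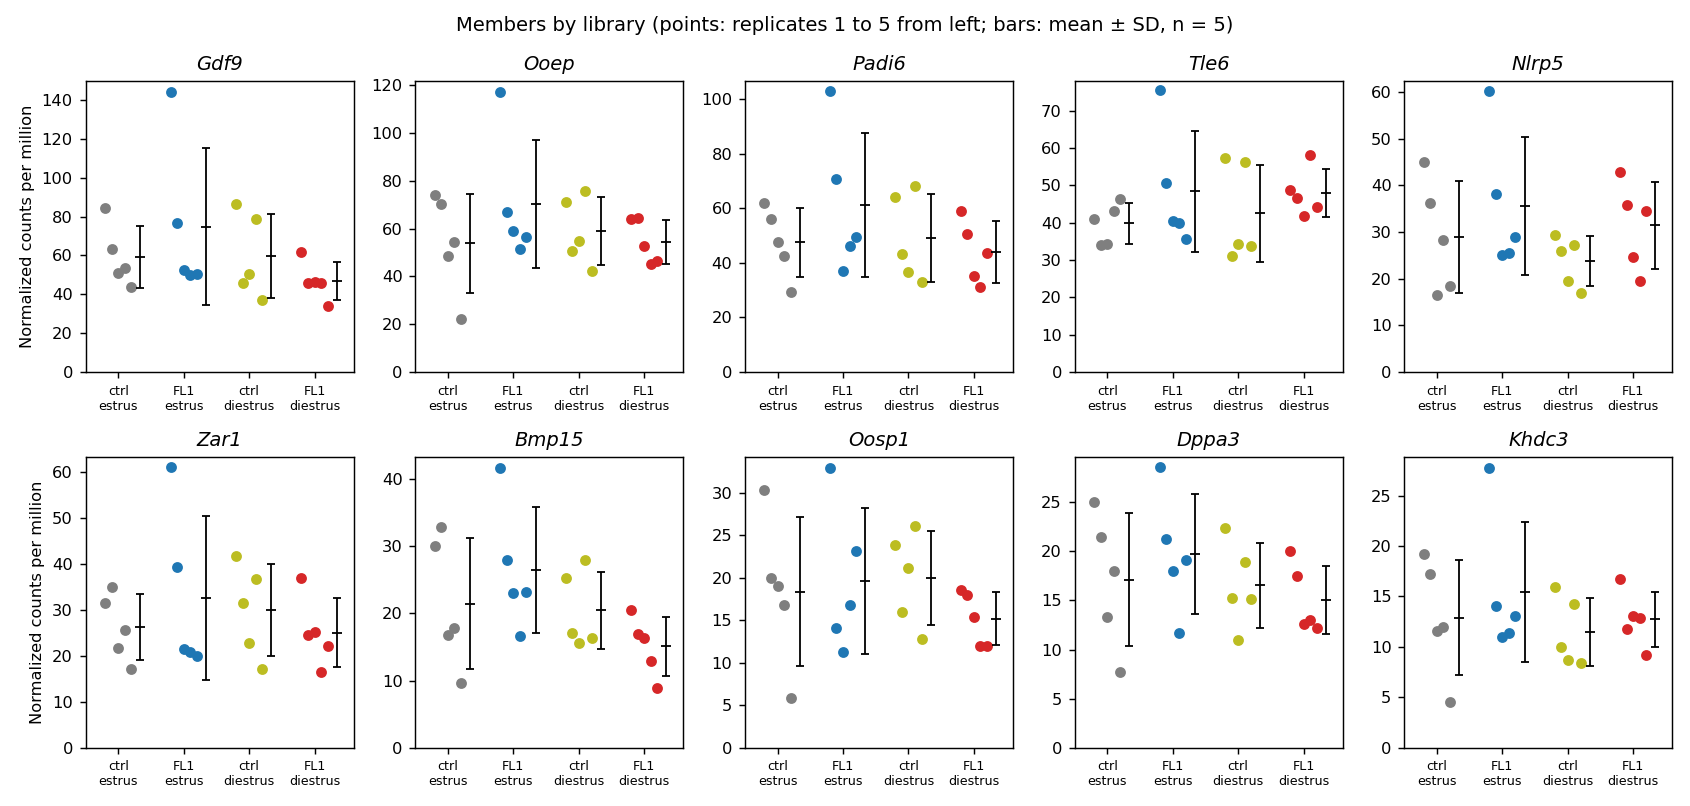
Normalized counts (CPM) of the 10 members, 1 panel per gene, in order of mean level. Points are libraries in replicate order and bars give the mean ± SD of 5 libraries, and FL1 estrus replicate 1 is the highest library of its group in every panel.

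The most strongly expressed member was Gdf9, with 60.1 ± 24.8 CPM (SD, n = 20), followed by Ooep with 59.4 ± 18.6 CPM. Padi6 reached 50.4 ± 17.5 CPM and Tle6 44.7 ± 10.9 CPM. Then came Nlrp5 with 29.9 ± 10.9 CPM, Zar1 with 28.5 ± 11.0 CPM, Bmp15 with 20.9 ± 8.17 CPM, Oosp1 with 18.3 ± 6.63 CPM, Dppa3 with 17.1 ± 5.22 CPM and Khdc3 with 13.1 ± 4.83 CPM. Since the library kit counts transcripts at their 3' ends, these levels were not divided by gene length, although the choice of end and the overlap of Khdc3 can still shift them. Some neighbours in this order were not separated from each other: Gdf9 exceeded Ooep in 8 of 20 libraries, Nlrp5 exceeded Zar1 in 11, Oosp1 exceeded Dppa3 in 11, and Padi6 exceeded Tle6 and Bmp15 exceeded Oosp1 in 13 each. Clear steps lay between Ooep and Padi6 (18 of 20 libraries), Tle6 and Nlrp5 (18), Zar1 and Bmp15 (18), and Dppa3 and Khdc3 (19). Gdf9 was above its partner ligand Bmp15 in every library.

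The members varied widely between animals of the same group. Summed over the 10 genes, the levels were 442.7, 386.8, 280.6, 312.2 and 205.2 CPM in the ctrl libraries in estrus (replicates 1 to 5). In FL1 in estrus the sums were 692.0, 420.1, 299.0, 290.6 and 319.7 CPM. In diestrus they were 437.7, 286.8, 274.8, 430.2 and 232.7 CPM in ctrl and 389.1, 332.2, 283.5, 267.1 and 267.5 CPM in FL1. The highest sum thus belonged to FL1 estrus replicate 1 and the lowest to ctrl estrus replicate 5, and the ranges of the 4 groups overlapped. In FL1 estrus replicate 1 all 10 members lay above the mean of their group, by 0.59 (Dppa3) to 1.08 (Gdf9) on the log2 scale. In ctrl estrus replicate 5 they lay below it for 9 of 10, by up to 1.45 for Oosp1, while Tle6 was 0.23 above it. Other libraries also shifted as a block: all 10 members were above the group mean in ctrl estrus replicate 1, ctrl diestrus replicates 1 and 4 and FL1 diestrus replicate 1, and all 10 below it in FL1 estrus replicates 3 and 4 and ctrl diestrus replicate 5.

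**Figure D2:**
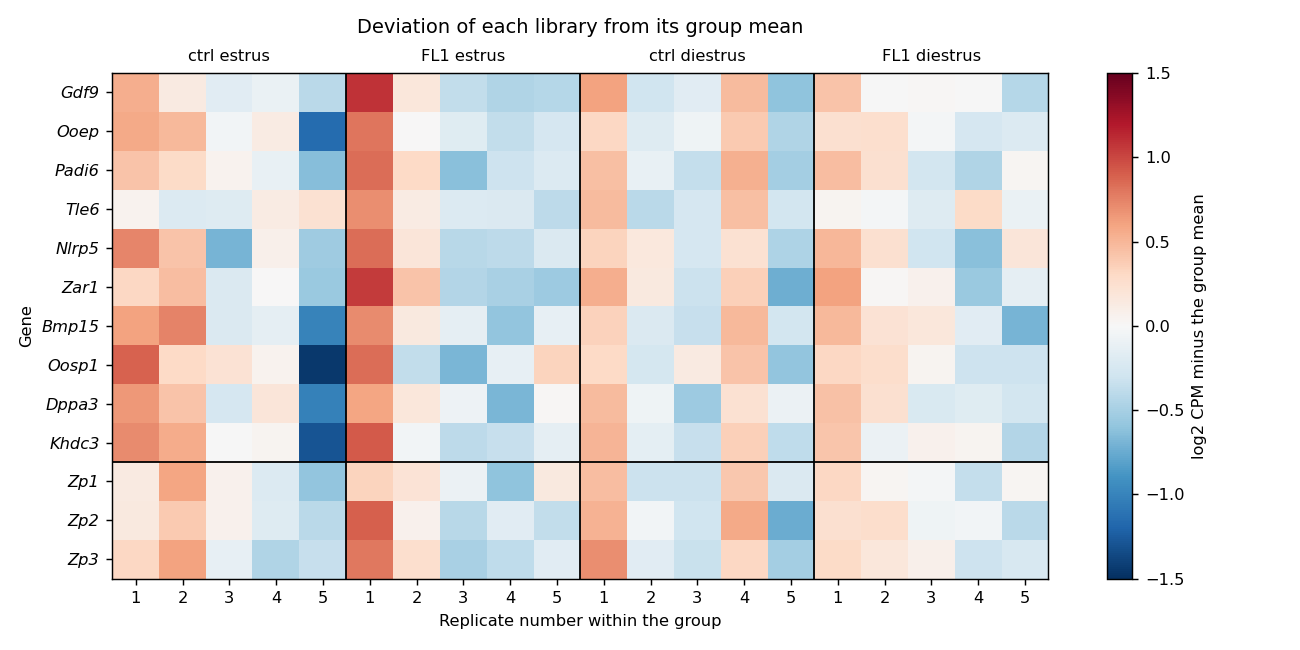
Log2 CPM minus the group mean for the 10 members and the zona genes Zp1, Zp2 and Zp3 (rows) in the 20 libraries (columns, by group and replicate number). Columns are mostly of the same colour, and Tle6 in ctrl estrus replicate 5 is 0.23 above its group mean while the other 9 members are below theirs.

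Within groups, the SD of log2 CPM ran from 0.33 for Tle6 to 0.59 for Oosp1. It was 0.48 for Gdf9 and 0.52 for Bmp15. Genes of like level, with a mean CPM within 1.5-fold, had a median SD of 0.19 to 0.32, and 87.4% of them (for Tle6) to 97.0% (for Gdf9) were less variable than the member. Over the 45 pairs of members, the within-group SD of the log2 ratio had a median of 0.31. The steadiest pair was Ooep and Khdc3, both of the subcortical maternal complex, with 0.18, and Bmp15 followed Khdc3 with 0.21 and Ooep with 0.22. Over all 20 libraries Tle6 stood farthest from the others, with a median SD of 0.47 over its 9 pairs and 0.61 against Oosp1. Its protein is a partner of OOEP and KHDC3. The ratio of Tle6 was less steady than its own level against 8 of the 9. These values include ctrl estrus replicate 5, where Tle6 was 0.23 above its group mean and the other 9 members were below theirs, Oosp1 by 1.45. The SDs were not computed without that library, so the distance of Tle6 may rest largely on it. These SDs describe the 20 libraries, in which all members of a library share its depth and scaling.

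Among the 14144 other genes kept, the 10 whose log2 CPM followed the mean of the members most closely over the 20 libraries were Elobl, Btg4, Oas1e, H1foo, Oosp3, Nlrp4f, Zp2, Fbxw18, Tcl1 and Zp3. The Pearson correlation was 0.96 for Elobl, an oocyte gene related to elongin B, and 0.93 for Btg4, which is needed for the decay of maternal RNA. It was 0.91 for Oas1e and 0.91 for H1foo, the oocyte linker histone, and ran from 0.88 to 0.89 for the other 6. With the group means taken out, the correlations were 0.88 to 0.97. Oosp3 (chr19:11697055-11711874) lies close to Oosp1 on chromosome 19. None of the 10 passed the test in a line or stage comparison. Their adjusted p-values from edgeR's quasi-likelihood test ran from 0.0919 (Tcl1, stage difference in FL1) to 0.992. Of all genes, 2.33% (line difference in estrus) to 15.9% (stage difference in FL1) passed. The 10 were chosen for following the members in the same libraries, so their results are no separate evidence. The correlations are a description, since all genes of a library share its depth and scaling.

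The first comparison asked whether the oocyte genes differed between the lines in estrus. No member passed the test: with edgeR's quasi-likelihood test and Benjamini-Hochberg adjustment, 0 of 10 reached an adjusted p of at most 0.05, against 311 of 13374 genes tested (2.33%). At an unadjusted p of 0.05 the number was also 0, as it was with adjusted p-values of DESeq2 and limma-voom. The log2 fold changes (log2FC, FL1 minus ctrl) were positive for all 10, with a median of 0.30 against -0.01 over all genes, but the adjusted p-values ran from 0.512 to 0.937. For Gdf9 the ctrl libraries had 84.5, 63.4, 51.1, 53.6 and 43.6 CPM and the FL1 libraries 144, 76.6, 52.5, 49.9 and 50.6 CPM. The first FL1 library lay above all others and the remaining 4 within the range of ctrl, and the log2FC of 0.33 ± 0.28 (SE, n = 5 per group) had an adjusted p of 0.622 in edgeR. Without FL1 estrus replicate 1 it was -0.05, and the median of the 10 members fell from 0.30 to 0.02. Without ctrl estrus replicate 5 that median was 0.18. With limma-voom it was 0.07, and Oosp1, Khdc3, Zar1 and Dppa3 had negative values.

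Bmp15 had 30.0, 32.9, 16.8, 17.9 and 9.67 CPM in ctrl and 41.7, 28.0, 23.1, 16.7 and 23.2 CPM in FL1 in estrus. The libraries of the lines overlapped, and the log2FC was 0.31 ± 0.30 (edgeR adjusted p = 0.69). Oosp1, the third secreted protein gene, had the smallest log2FC, 0.09 ± 0.35, with 5.80 to 30.3 CPM in ctrl and 11.3 to 32.9 CPM in FL1. In the subcortical maternal complex, Ooep had 74.3, 70.2, 48.4, 54.5 and 22.3 CPM in ctrl and 117, 67.2, 59.0, 51.6 and 56.4 CPM in FL1. Its log2FC of 0.38 ± 0.28 (edgeR adjusted p = 0.564) was the highest of the members and did not pass the test. The other members of the complex, Nlrp5, Tle6 and Khdc3, had log2FC of 0.30 ± 0.29, 0.28 ± 0.19 and 0.25 ± 0.34. Outside the complex, Padi6 had 0.36 ± 0.26, Zar1 0.31 ± 0.30 and Dppa3 0.20 ± 0.28. In an exact permutation test over the 252 splits of 5 against 5 libraries, two-sided on mean log2 CPM, the p-values of the 10 members ran from 0.31 to 0.762, where 0.00794 is the smallest that this design allows.

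**Figure D3:**
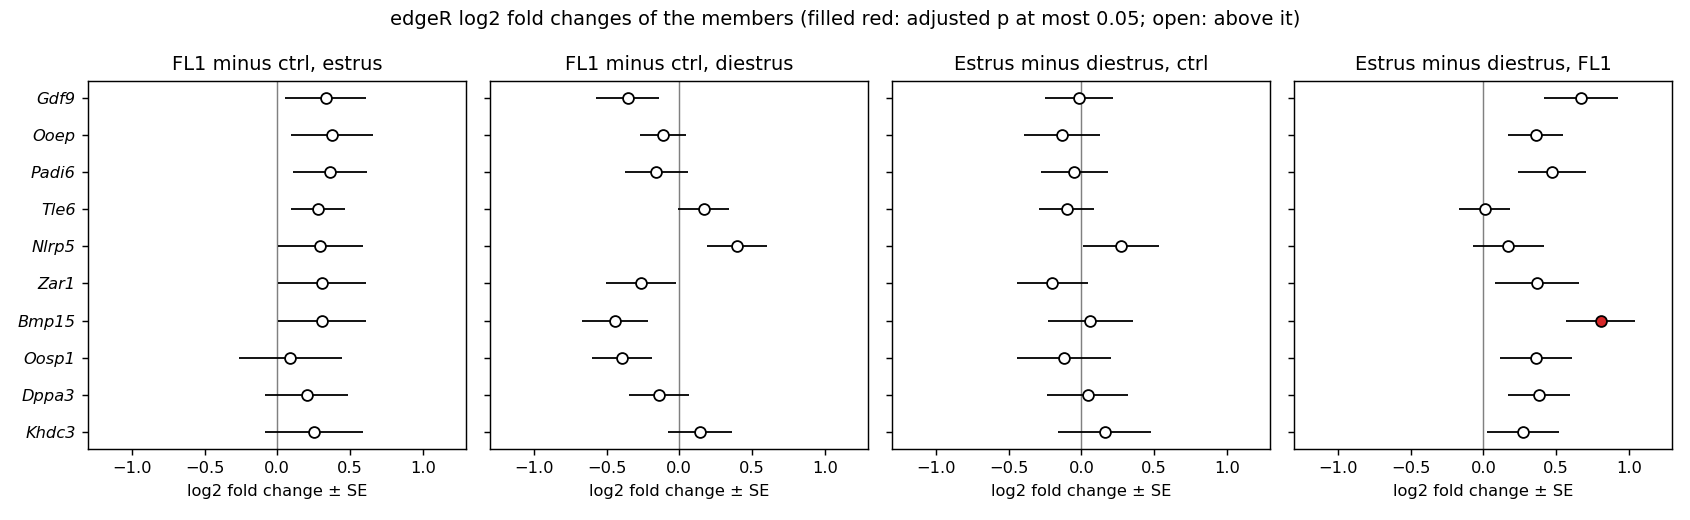
Log2 fold change ± SE of the 10 members in 4 comparisons, FL1 minus ctrl in estrus and in diestrus and estrus minus diestrus in ctrl and in FL1. Only Bmp15 between the stages of FL1 (log2FC 0.81) is filled, for an adjusted p of at most 0.05.

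In diestrus, no member passed either: 0 of 10 reached the threshold, against 545 of 13259 genes (4.11%), and 0 of 10 had an unadjusted p of at most 0.05. DESeq2 and limma-voom also gave 0. The log2FC were negative for 7 members and positive for 3, with a median of -0.15 against -0.01 over all genes. The 3 secreted protein genes, Bmp15, Oosp1 and Gdf9, had the lowest values. Without 1 library that median ran from -0.28 (without FL1 diestrus replicate 1) to -0.03 (without ctrl diestrus replicate 1), and it was over 1.5 times weaker also without ctrl diestrus replicate 4 or FL1 diestrus replicate 3 or 4, and over 1.5 times stronger also without ctrl diestrus replicate 3 or 5. For Gdf9 the ctrl libraries had 86.3, 46.0, 50.2, 78.8 and 37.2 CPM and the FL1 libraries 61.7, 45.8, 46.4, 45.7 and 34.1 CPM, a log2FC of -0.36 ± 0.22 (edgeR adjusted p = 0.426). Replicates 1 and 4 of ctrl were the high libraries and the others lay within the range of FL1. For Bmp15 ctrl had 25.3, 17.1, 15.6, 28.0 and 16.4 CPM and FL1 20.5, 16.9, 16.4, 12.9 and 8.83 CPM, a log2FC of -0.44 ± 0.23 (edgeR adjusted p = 0.331). The lowest library was FL1 diestrus replicate 5, and the lines overlapped. Oosp1 had a log2FC of -0.39 ± 0.20, with 12.8 to 26.1 CPM in ctrl and 12.0 to 18.6 CPM in FL1.

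Nlrp5 ran the other way in diestrus. The ctrl libraries had 29.3, 26.0, 19.5, 27.3 and 16.9 CPM and the FL1 libraries 42.8, 35.8, 24.6, 19.5 and 34.5 CPM. In FL1 3 of 5 libraries lay above the highest of ctrl, and the other two lay within the range of ctrl, with a log2FC of 0.40 ± 0.21 (edgeR adjusted p = 0.345). The partners of Nlrp5 in the subcortical maternal complex had smaller differences: 0.17 ± 0.18 for Tle6, 0.14 ± 0.22 for Khdc3 and -0.11 ± 0.16 for Ooep. Padi6 had -0.16 ± 0.22, Zar1 -0.26 ± 0.24 and Dppa3 -0.14 ± 0.21. By the exact permutation test, the two-sided p-values of the 10 members in diestrus ran from 0.143 (Bmp15) to 0.611.

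Over both stages together, with stage as a covariate, 0 of 10 members passed the test, against 954 of 14154 genes (6.74%), and none had an unadjusted p of at most 0.05. The median log2FC of the members was 0.07, the lowest -0.15 for Oosp1 and the highest 0.35 for Nlrp5. The median turned negative without FL1 estrus replicate 1 (-0.05), without ctrl estrus replicate 5 (-0.0079) and with limma-voom (-0.02), and without the other libraries it ran from 0.03 to 0.15. The line-by-stage interaction passed for 0 of 10 members and for 8 of 14154 genes (0.0565%). Its log2 values were positive for 9 members, with a median of 0.48, and SEs of 0.27 to 0.44. They were also positive for 23 of 25 other maternal effect and oocyte-stored genes described below (median 0.59) and for 3 of 3 zona genes (median 0.25). Of the oocyte transcription factors 3 of 5 were positive, and 2 of 2 germ cell genes were negative. The median of the members was 0.22 without FL1 estrus replicate 1, 0.28 without ctrl estrus replicate 5 and 0.22 with limma-voom. The signs of the line difference in estrus and in diestrus were therefore not shown to differ for any member.

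A further question was whether the levels changed with the stage of the cycle. In ctrl, 0 of 10 members passed the test, against 380 of 13334 genes (2.85%), and 0 had an unadjusted p of at most 0.05. The log2FC (estrus minus diestrus) ran from -0.20 for Zar1 to 0.27 for Nlrp5, with a median of -0.03 and adjusted p-values from 0.70 to 0.985. The sign of that median was not stable, with -0.16 to 0.11 when 1 library was left out and 0.09 with limma-voom. In FL1, Bmp15 was stronger expressed in estrus than in diestrus, and it was the only member of 10 to pass the test, against 2123 of 13350 genes (15.9%). Its levels were 41.7, 28.0, 23.1, 16.7 and 23.2 CPM in estrus and 20.5, 16.9, 16.4, 12.9 and 8.83 CPM in diestrus. The stages overlapped, since the lowest library in estrus lay below the highest 2 in diestrus. The log2FC was 0.81 ± 0.24 with an edgeR adjusted p of 0.0279, and the exact permutation test, two-sided over 252 splits, gave p = 0.0238. That permutation p was not adjusted for the number of members or comparisons. For the other members in this comparison the same test gave 0.103 (Gdf9) to 0.889 (Tle6).

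The call for Bmp15 depended on the libraries and the fit. It was lost without FL1 estrus replicate 1 (log2FC 0.59, adjusted p = 0.0717 in edgeR), and also without FL1 estrus replicate 2 (adjusted p = 0.0519) and without FL1 diestrus replicate 3, 4 or 5 (adjusted p = 0.0511, 0.0697 and 0.0602), with log2FC of 0.67 to 0.84 in the latter 4. It was also lost with limma-voom (log2FC 0.66, adjusted p = 0.0633) and in 1 fit of all 20 libraries (0.81, adjusted p = 0.0758). Gdf9 had 144, 76.6, 52.5, 49.9 and 50.6 CPM in estrus and 61.7, 45.8, 46.4, 45.7 and 34.1 CPM in diestrus in FL1. All estrus libraries were above 4 of the 5 in diestrus, with a log2FC of 0.67 ± 0.26 and an edgeR adjusted p of 0.0855. The log2FC was positive for all 10 members, with a median of 0.37 against 0.01 over all genes, but it was 0.01 ± 0.17 for Tle6 and 0.17 ± 0.24 for Nlrp5. Without FL1 estrus replicate 1 the median was 0.10, and with limma-voom 0.21. Positive values were not particular to the members. They were found for 3 of 3 zona genes (median 0.31) and for 20 of 24 other maternal effect and oocyte-stored genes described below (median 0.44). Among the oocyte transcription factors, 2 of 5 were positive (median -0.0044). In the same comparison 6 of 7 luteal markers and 3 of 3 blood markers were lower in estrus, and their part in the values of the members was not tested.

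The zona pellucida genes Zp1, Zp2 and Zp3, which encode the coat of the same growing oocytes, served as a reference for the amount of oocyte RNA. The log2 ratio of each member to the mean of the zona genes was taken within each library, after adding 0.5 CPM. In estrus the difference between the lines (FL1 minus ctrl) in the mean ratio ran from -0.02 for Oosp1 to 0.24 for Ooep, and the lines overlapped for all 10 members, where 1.2% of all 14154 genes did not overlap. In diestrus they also overlapped for all 10 members, against 1.66% of all genes. The ratio of Bmp15 to the zona genes was -0.31 ± 0.16 (SD, n = 5) in ctrl and -0.71 ± 0.28 in FL1 in diestrus. Only 1 library of ctrl lay below the highest of FL1, at -0.52 against -0.51. Oosp1 had ratios of -0.35 ± 0.27 and -0.67 ± 0.09, and Gdf9 had 1.18 ± 0.12 and 0.91 ± 0.19. The ratio of Nlrp5 was -0.08 ± 0.23 in ctrl and 0.32 ± 0.33 in FL1. For Ooep the ratios in diestrus, 1.20 ± 0.18 and 1.14 ± 0.06, differed by less than their spread. These ratios are descriptions without a test.

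**Figure D4:**
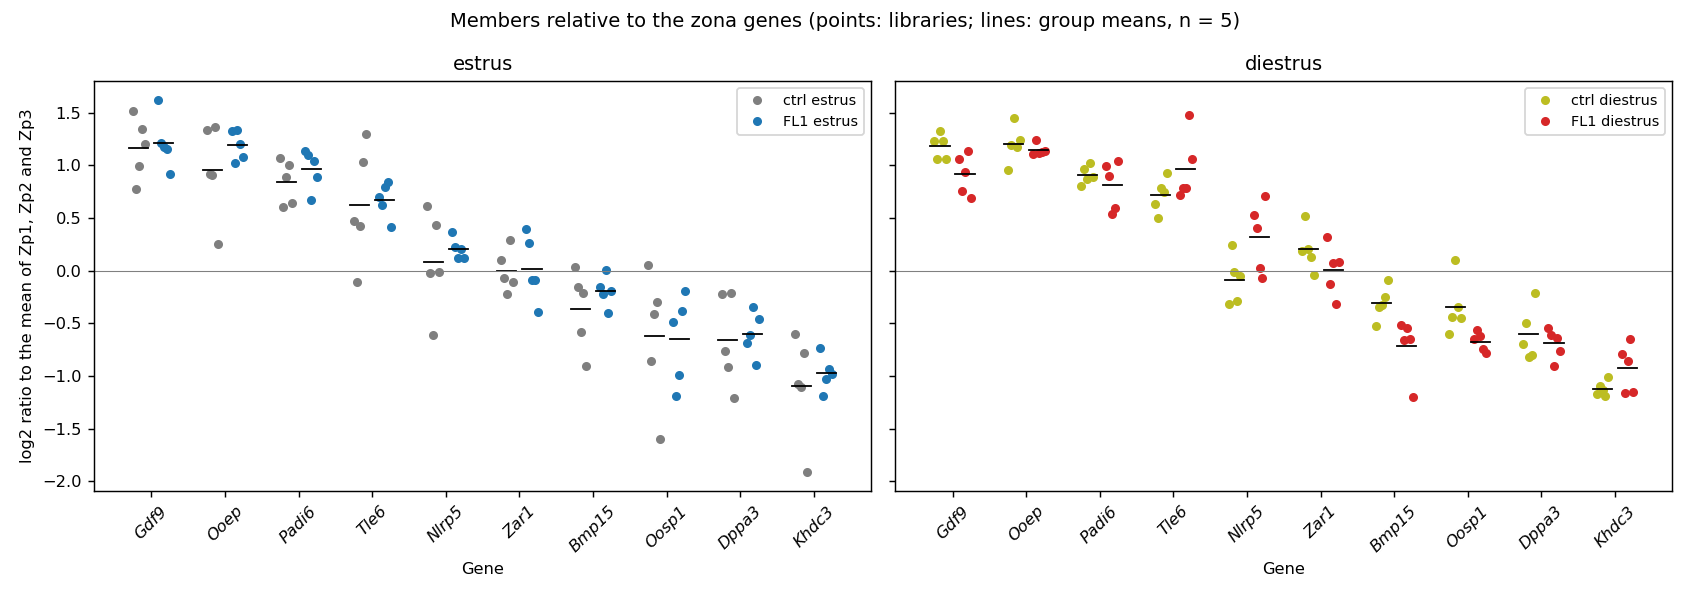
Log2 ratio of each member to the mean of Zp1, Zp2 and Zp3 in the libraries of estrus (left) and diestrus (right), with points for libraries and lines for group means. In diestrus Bmp15 averages -0.71 in FL1 and -0.31 in ctrl, and Nlrp5 0.32 and -0.08.

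Other genes of the oocyte were taken from a list of 26 further maternal effect and oocyte-stored genes, of which 25 were tested in each line comparison. In estrus none passed the test, and the log2FC was positive for 20 and negative for 5, with a median of 0.14. In diestrus 4 of 25 passed, all weaker expressed in FL1, against 4.11% of all genes in either direction and 1.82% (241 of 13259 genes) lower in FL1. The median log2FC of the list was -0.36 against -0.01 over all genes, with 21 negative and 4 positive values. Zbed3, which encodes a protein tied to the subcortical maternal complex and had the highest level of the list, had 93.8, 105, 97.5, 80.9 and 80.5 CPM in ctrl and 67.7, 70.9, 54.8, 69.6 and 68.4 CPM in FL1. Every ctrl library was above every FL1 library, with a log2FC of -0.47 ± 0.10 (edgeR adjusted p = 0.0187). Such non-overlap held for 5.45% of all genes tested in diestrus.

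Bcl2l10, a BCL2 family gene of oocytes, had 35.4, 31.7, 32.3, 34.7 and 25.7 CPM in ctrl and 22.3, 13.5, 24.4, 13.7 and 9.33 CPM in FL1 in diestrus. The groups did not overlap, and the log2FC was -0.94 ± 0.22 (edgeR adjusted p = 0.0235). Oosp2 (chr19:11647279-11660559), of the same family and neighbourhood as Oosp1, was lowly expressed, with 3.77, 5.75, 4.05, 3.45 and 2.31 CPM in ctrl and 0.72, 1.44, 0.79, 0.99 and 0 CPM in FL1. The 0 in FL1 diestrus replicate 5 allows up to 0.501 CPM (3 counts, counting error only). Its log2FC was -2.24 ± 0.49 (edgeR adjusted p = 0.0189). Rfpl4, an oocyte ring finger gene, had 16.3 to 22.2 CPM in ctrl and 10.1 to 17.1 CPM in FL1, a log2FC of -0.62 ± 0.16 (edgeR adjusted p = 0.0428). Its groups overlapped, and its call held in 7 of 16 alternative fits, against 14 for Zbed3, 13 for Bcl2l10 and 14 for Oosp2. Zbed3 lost the call without ctrl diestrus replicate 2 (adjusted p = 0.0504 in edgeR), Oosp2 without that library or FL1 diestrus replicate 1 (0.0525 and 0.0513), and Bcl2l10 without FL1 diestrus replicate 2 or 4 (0.0556 and 0.0704). Rfpl4 lost it without any library other than ctrl diestrus replicate 5 or FL1 diestrus replicate 2, with adjusted p-values of up to 0.106. In the fit of all 20 libraries 1 gene of the list was called. In estrus, Oosp2 had 1.32 to 4.15 CPM in ctrl and 0.89 to 2.94 CPM in FL1. Between the stages of FL1, 1 of 24 genes of the list passed, against 15.9% of all genes: Tet3, an enzyme of DNA demethylation, was weaker expressed in estrus (log2FC -0.53 ± 0.12, edgeR adjusted p = 0.00472). Most of the list ran the other way in that comparison, with 20 positive and 4 negative log2FC and a median of 0.44.

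**Figure D5:**
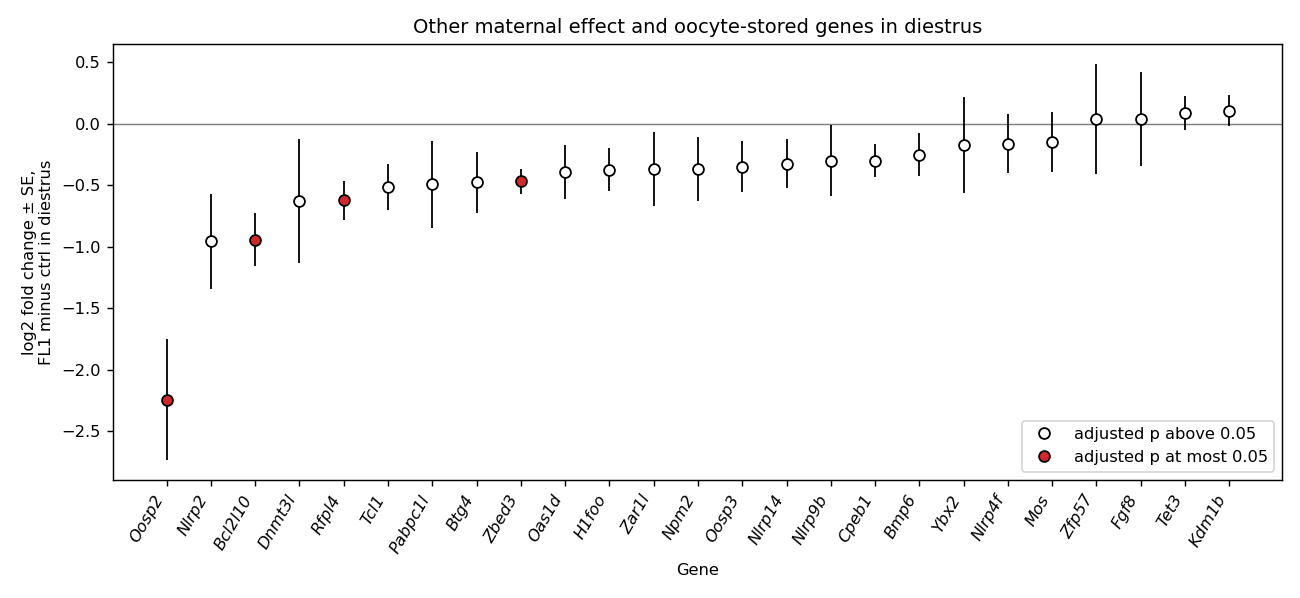
Log2 fold change ± SE (FL1 minus ctrl in diestrus) of the 25 tested genes of the list of other maternal effect and oocyte-stored genes, in ascending order. The 4 filled points, Oosp2, Bcl2l10, Rfpl4 and Zbed3, had an adjusted p of at most 0.05 and lie below 0.

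Regulators and neighbours of the members in the oocyte gave no call. Of 6 oocyte transcription factors, 5 were tested in estrus and 4 in diestrus, and 0 passed in either comparison, nor between the stages of either line. Taf4b had the highest level among them, 26.7 CPM on average, with its ends in ctrl estrus replicate 5 (11.6 CPM) and ctrl diestrus replicate 1 (52.4 CPM). Nobox had 1.05 to 15.4 CPM over the libraries, with the ends in ctrl estrus replicate 5 and FL1 estrus replicate 1, as for the summed levels of the members. In the same libraries Figla had 0.18 and 4.84 CPM and Sohlh2 0 and 0.29 CPM. Lhx8 and Sohlh1 had no higher value in FL1 estrus replicate 1, with 4.92 and 3.52 CPM and with 3.34 and 2.94 CPM. These genes rest on few reads: over all 20 libraries Figla had 249, Sohlh1 254, Sohlh2 106 and Lhx8 508. Whether such differences between single libraries exceed counting error was not tested. Of the zona genes 0 of 3 passed, with a median log2FC of 0.10 in estrus and -0.07 in diestrus. The germ cell gene Dazl, at 10.5 CPM on average, passed in no line or stage comparison.

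Of 12 receptor and SMAD genes, which receive and pass on signals such as those of GDF9 and BMP15, 1 passed between the lines in estrus, against 2.33% of all genes: Smad4, the shared partner of the receptor-activated SMADs, was stronger expressed in FL1: 120, 131, 146, 121 and 111 CPM in ctrl and 184, 181, 153, 152 and 184 CPM in FL1. The lines did not overlap, as held for 4.89% of all genes, and the log2FC was 0.44 ± 0.10 (edgeR adjusted p = 0.0412). It passed in 8 of 16 alternative fits, and of the single libraries left out only ctrl estrus replicates 3 and 5 and FL1 estrus replicate 3 left the call in place (adjusted p up to 0.112 without the others). In diestrus 2 of 12 passed, against 4.11% of all genes: Tgfbr1, the type 1 receptor that GDF9 uses, and Smad1, which BMP receptors phosphorylate. Tgfbr1 had 57.3, 60.2, 53.2, 68.6 and 69.9 CPM in ctrl and 135, 89.2, 110, 101 and 83.1 CPM in FL1, a log2FC of 0.74 ± 0.13 (edgeR adjusted p = 0.00487). Smad1 had 41.7, 48.0, 57.2, 52.6 and 42.7 CPM in ctrl and 91.3, 63.0, 89.9, 96.7 and 82.4 CPM in FL1, a log2FC of 0.81 ± 0.13 (edgeR adjusted p = 0.0022). For both genes each FL1 library was above each ctrl library, where 5.45% of all genes tested in diestrus did not overlap. Both passed in all 16 alternative fits. Bmpr2, the receptor shared by the ligands and the gene of highest level in the list with 285 CPM, did not pass in a line comparison. Between the stages of FL1, Tgfbr1 (log2FC -0.90), Smad1 (-0.87), Smad7 (-0.67) and Smad3 (-0.26) were weaker expressed in estrus, so 4 of 12 passed, against 15.9% of all genes. In the same comparison 6 of 7 luteal, 2 of 7 granulosa (Foxl2, log2FC -0.55, and Cyp19a1, -1.38) and 1 of 3 theca markers (Cyp17a1, -3.83) passed, all weaker expressed in estrus, and their part in these values was not tested. In ctrl 0 of 12 passed.

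Among the genes that GDF9 and BMP15 are known to regulate in granulosa and cumulus cells, 7 of 10 were expressed highly enough to be tested. In estrus 1 of 7 passed, against 2.33% of all genes. Ldha, a glycolysis gene and the one of highest level, was stronger expressed in FL1 in estrus, with 171.2, 177.7, 169.5, 222.8 and 137.5 CPM in ctrl and 330.3, 331.5, 204.5, 255.6 and 247.8 CPM in FL1. The lines overlapped by 1 library on each side, and the log2FC was 0.64 ± 0.15 (edgeR adjusted p = 0.042, passing in 8 of 16 alternative fits). Of the single libraries left out, only ctrl estrus replicates 4 and 5 and FL1 estrus replicate 3 left the call in place (adjusted p up to 0.119 without the others). In diestrus 2 of 7 passed, both weaker expressed in FL1, against 4.11% of all genes in either direction and 1.82% lower in FL1. Grem1, an inhibitor of BMP ligands, had 10.5, 22.2, 12.3, 14.3 and 70.4 CPM in ctrl and 3.01, 6.80, 7.08, 7.36 and 8.83 CPM in FL1. The highest library was ctrl diestrus replicate 5, and the log2FC was -1.97 ± 0.49 (edgeR adjusted p = 0.037, passing in 9 of 16 alternative fits). Without that library it was -1.16 (edgeR adjusted p = 0.0414). Slc38a3, an amino acid transporter of cumulus cells, had 32.6 to 61.5 CPM in ctrl and 16.9 to 31.8 CPM in FL1, a log2FC of -0.82 ± 0.19 (edgeR adjusted p = 0.0278, also 9 of 16). Both calls were lost without ctrl diestrus replicate 2 or FL1 diestrus replicate 1, 2, 3 or 4. That of Grem1 was also lost without FL1 diestrus replicate 5 (edgeR adjusted p up to 0.088 in these fits) and with limma-voom (adjusted p = 0.0721). Slc38a3 also lost the call in edgeR with the replicate block (adjusted p = 0.0793) and in 1 fit of all 20 libraries (adjusted p = 0.307). Over both stages the line difference passed for 3 of 7 genes tested in this list, against 6.74% of all genes. These were Ldha (log2FC 0.42), Pfkp, another glycolysis gene (0.46), and Grem1 (-1.42). Among the receptors and SMADs it passed for 2 of 12, Smad4 (0.32) and Tgfbr1 (0.42). Whether these calls over both stages held in the alternative fits was not examined. Between the stages of FL1, Ldha (0.87), Pfkp (0.43) and Tnfaip6, a gene of the cumulus matrix (1.55), were stronger expressed in estrus, 3 of 7 against 15.9% of all genes.

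Cell type markers moved with these comparisons as follows. Between the lines in estrus 0 of 7 granulosa and 0 of 7 luteal markers tested passed, against 2.33% of all genes. In diestrus 1 of 7 granulosa (Foxl2, log2FC 0.53), 1 of 7 luteal (Lhcgr, 1.43) and 1 of 3 immune markers (Cd68, 0.79) passed. All were stronger expressed in FL1, and 4.11% of all genes passed. The log2FC was negative for 2 of 7 granulosa, 4 of 7 luteal and 1 of 3 immune markers. Whether the calls of Foxl2, Lhcgr and Cd68 held in the alternative fits was not examined. The qPCR of the study in diestrus found Lhcgr higher in FL1 but no increase of Foxl2. The summed granulosa markers covered 2440 to 3580 CPM in ctrl and 2430 to 3680 CPM in FL1 in diestrus, and the summed luteal markers 21200 to 40500 CPM and 22200 to 31300 CPM. The part of these cells in the differences of the receptor, SMAD and target genes was not tested.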

How the data were processed

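Ovarian RNA of 20 mice was sequenced with the QuantSeq 3' mRNA-Seq kit, which reads the 3' ends of transcripts, so a gene's value does not scale with its length. The authors aligned the reads to GRCm38 with STAR and counted them per Ensembl gene. The processing notes in the labels also name Cuffdiff, and the counting tool and its strand setting are not given in the sources used here. What was deposited are raw counts in 1 table for each library, neither normalized nor pooled. Groups and replicate numbers came from the sample titles. A source name that reads FL1 for every library, ctrl included, was not used.

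All further values were computed here. The members and the gene lists were chosen with earlier results of these data known. Symbols and positions came from GENCODE M21, which holds 54809 of the 54838 genes. Tests used the quasi-likelihood fit of edgeR 4.0.16 in R 4.3.3, with TMM scaling, a filter by filterByExpr (minimum count 10), and Benjamini-Hochberg adjustment over all genes tested, with a threshold of 0.05. Lines were compared in the 10 libraries of a stage, stages in the 10 libraries of a line, and the line difference over both stages and the interaction in all 20. SEs were obtained from log2FC and the F statistic. Log2 CPM used a prior count of 2. All members were named, and from each list the genes that passed in a line difference (at most 6) and the gene of highest level, together with the 10 genes most correlated with the mean of the members. Outside this rule, the other oocyte transcription factors and some genes that passed only between the stages of FL1 were also named. On simulated data for the line difference in estrus (13165 genes, 200 changed by 1.5 on the log2 scale), the edgeR fit recovered 91% of the changed genes with 6 other calls. The changed genes were drawn at random. The members' line differences within a stage were smaller, from -0.44 to 0.40, and the members varied more than most genes of like level. This rate therefore does not carry over to the members. Alternatives were RLE scaling, DESeq2 1.42.0, limma 3.58.1 (voom with sample weights), all genes with at least 1 count, the replicate number as a block, 1 fit of all 20 libraries and leaving out each library. Counting intervals and floors (3 counts) cover counting error only. Promoter sequences are from RefSeq (GRCm38.p6). Python 3.11.15, pandas 2.3.3, numpy 2.4.6 and matplotlib 3.10.9 were used for tables and figures.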

Additional observations from a re-analysis of the deposited data

Results flagged for a closer look

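Of 40 sets of 5 libraries (10 members in 4 groups), 3 held a library far from the other 4, and chance flags about 1 in 20 such sets. All were FL1 estrus replicate 1 as the highest library. Gdf9 had 144 CPM there, against 76.6 CPM in the next library. Ooep had 117 CPM, against 67.2 CPM. Khdc3 had 27.7 CPM, against 14.1 CPM. The library was the highest of its group for the other 7 members too, so these flags are not independent of each other.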

How the results depend on the processing

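The number of members that passed the test stayed at 0 in the line differences in estrus, in diestrus and over both stages, in the stage difference in ctrl and in the interaction, under all alternatives run. In the stage difference in FL1 it was 1 (Bmp15) in the main test, 0 with limma-voom and in 1 fit of all 20 libraries, 3 (Bmp15, Gdf9 and Padi6) with all genes of at least 1 count, and 0 to 2 when single libraries were left out. With the replicate block it was 3, the same genes. The replicate numbers were not taken as a pairing, since the deviations of same-numbered libraries correlated above 0.1 in 1 of 20 pairs (range -0.10 to 0.13). Log2FC of single members were followed under the alternatives in the line differences in estrus and in diestrus and the stage difference in FL1 only. Of these 480 values, 448 kept their direction and side of the threshold, 7 lost and 5 gained the call, and 20 changed sign. Sign changes of single members in the other comparisons were not counted. With limma-voom the log2FC in estrus between the lines was -0.14 for Oosp1, -0.0066 for Khdc3, -0.026 for Zar1 and -0.051 for Dppa3, and Tle6 between the stages of FL1 was -0.11. Tle6 was -0.0013 with all genes of at least 1 count and -0.030 with the replicate block. Leaving out single libraries, the line difference in estrus ranged from -0.053 to 0.50 for Gdf9, -0.18 to 0.34 for Oosp1, -0.066 to 0.44 for Khdc3 and -0.051 to 0.44 for Zar1. In diestrus Dppa3 ranged from -0.26 to 0.0036, and between the stages of FL1 Nlrp5 ranged from -0.10 to 0.31, Tle6 from -0.21 to 0.10 and Khdc3 from -0.038 to 0.39. The cause of these changes was not tested. With 4 transcription factors in place of the zona genes as reference, the line difference of every member moved by the same amount, which tests no single member, and Oosp1 in estrus went from -0.02 to 0.03. The SEs of 0.16 to 0.35 of the members' line differences within a stage set the precision of these comparisons.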
